A study of Mus musculus with 6 samples.

Results

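A set of 10 genes that mark the pluripotent epiblast and its exit from that state were followed in mouse embryos labelled embryonic day 7.5: Lin28a, Lin28b, Pou5f1, Nanog, Utf1, Fgf5, L1td1, Dppa4, Tdgf1 and Zfp42. They were taken by gene symbol, with earlier results of these data known, and all 10 were found among the 21877 symbols of the expression table. The embryos carried the Rnf111 S254D knock-in (KI, 3 libraries) or were wild type (WT, 3 libraries). Rnf111, also called Arkadia, encodes a ubiquitin ligase that promotes Nodal and TGF-beta signalling. Zygosity, strain, sex, litter and the number of embryos in a library are not stated in the labels used here, and p-values therefore reflect the spread among these libraries alone, part of which may be technical. The comparison addresses whether the mutant allele alters the transcripts of the embryo, and the 10 genes also serve as a clock of developmental stage. Levels were deposited as RPKM, a read density normalised to exon length and sequencing depth. Values are given in the order of replicates 1, 2 and 3 of each genotype, and ± marks the SD (n = 3 libraries per genotype).

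Pou5f1 (Oct4) and Nanog are the core transcription factors of pluripotent cells. In the mouse they are expressed in the epiblast during gastrulation and are lost as somites form, apart from the germ cells. Fgf5 is a signal of the post-implantation epiblast, and Zfp42 (Rex1) marks the earlier, naive state. Lin28a and Lin28b encode RNA-binding proteins that block the maturation of the let-7 family of microRNAs. Mature let-7 in turn represses Lin28a, Lin28b and growth regulators such as Hmga2, Igf2bp1 and Trim71, and Lin28 declines as let-7 accumulates in the course of development.

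The microRNAs themselves were not measured here, but the sequences that link Lin28 to its targets can be read from the reference. Below are mature let-7 family sequences from RefSeq (GRCm38.p6), 5′ to 3′, shown because their shared seed defines the sites counted further on. The capitals mark the seed, bases 2 to 8.
mmu-let-7a-5p: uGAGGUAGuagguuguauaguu
mmu-let-7d-5p: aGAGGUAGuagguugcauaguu
mmu-let-7g-5p: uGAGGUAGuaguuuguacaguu
mmu-miR-98-5p: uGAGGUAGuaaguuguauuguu
mmu-let-7j: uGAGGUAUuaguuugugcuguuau
The seed GAGGUAG was shared by 10 of the 11 family members listed, while let-7j has GAGGUAU in that place. The seed match CTACCTC was searched on the sense strand of the longest annotated 3′ UTR of each gene (GENCODE M21). It occurred in both Lin28 genes and in no other of the 10. Lin28a held 2 matches in 2775 bases and Lin28b held 4 in 4445 bases, as these 30-base windows show, with the match in capitals.
Lin28a match 1: agtgcacagcctgttgaaCTACCTCatttt
Lin28a match 2: tttgagatcgccacaaacCTACCTCactgt
Lin28b match 1: ttcacccgggcgggaagtCTACCTCatgca
Lin28b match 2: acatatacttgttagtaaCTACCTCtgagt
Lin28b match 3: tctgtttacagcacatggCTACCTCccagc
Lin28b match 4: tggaaatgatggcaccgaCTACCTCttcaa
Of 21153 genes with an annotated 3′ UTR, 10.1% held at least 1 match, and of the 6045 with 2000 bases or more, 20.98% did. A match describes the letters only and is not evidence of regulation.

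A library of each genotype stood apart, WT 3 and KI 2. The depths of the 6 libraries, recovered from the values, were 9763045 to 13559223 reads. The highest Pearson's r of WT 3 with any other library was 0.952 over 10104 genes (log2 scale), and it held the lowest value of 51.8% of these genes. KI 2 nearly lacked the visceral and yolk sac endoderm transcripts: over the 10 markers of that tissue the summed RPKM was 549.6, 9.96 and 664 in the KI libraries and 439.8, 445 and 1256 in the WT libraries. Summed Y-linked RPKM over 4 genes was 7.29, 50.9 and 0 in the KI libraries and 41.05 to 62.0 in the WT libraries.

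The levels of the 10 genes fell into 3 tiers. Lin28a and Lin28b were abundant in every library, Tdgf1 was low, and the remaining 7 stayed below the expression minimum of 1 RPKM in at least 3 libraries, though L1td1 and Utf1 each passed 1 RPKM in 1 WT library. The 7 low genes together summed to 1.52, 0.396 and 2.39 RPKM in the KI libraries and to 2.51, 0.963 and 2.15 RPKM in the WT libraries.

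**Figure D1:**
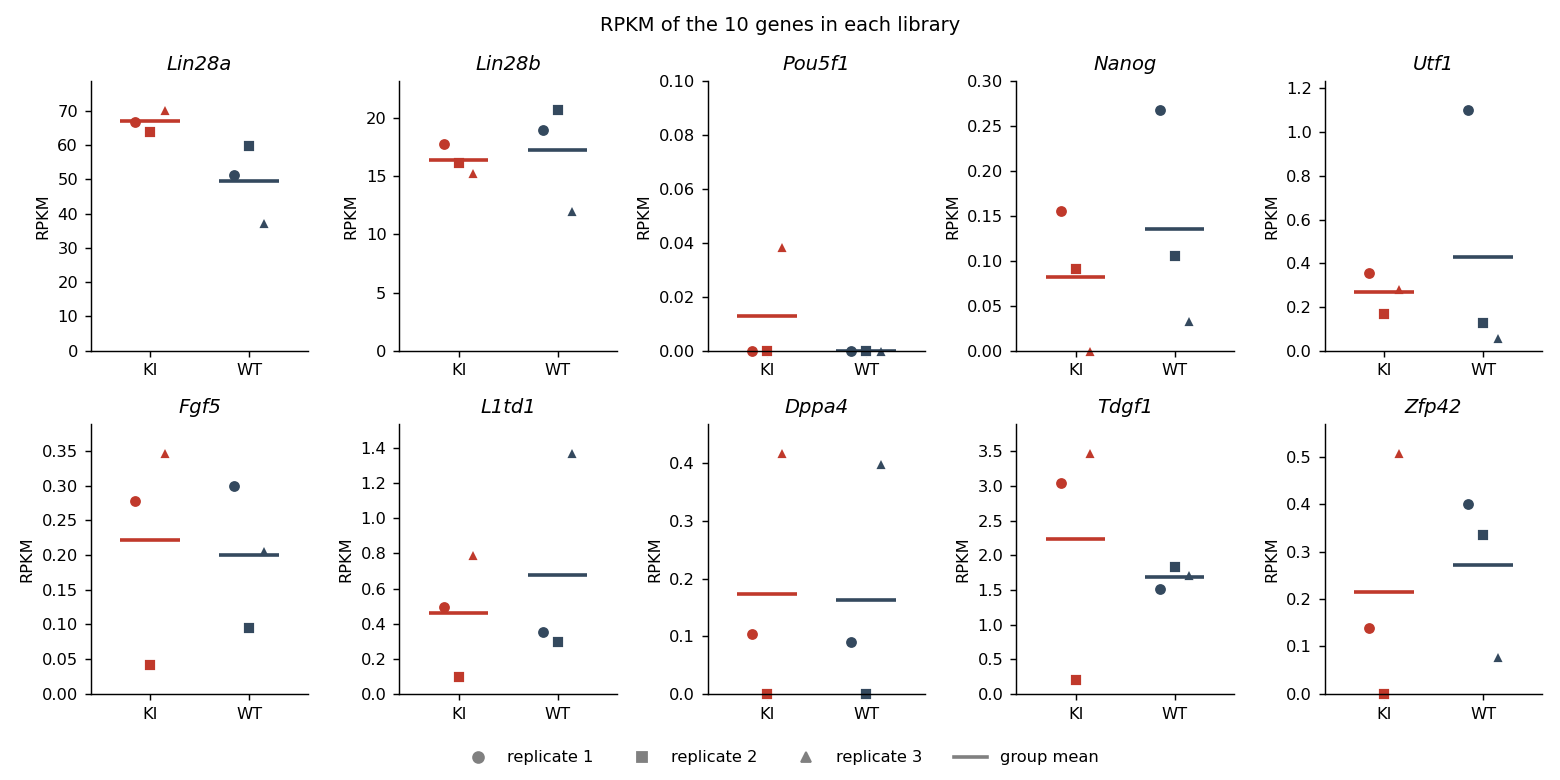
RPKM (vertical axis, linear and starting at 0, with its own scale in each panel) of the 10 genes in the 3 KI libraries (red, left) and the 3 WT libraries (dark, right), with symbols for replicates and a bar for the group mean. Lin28a lies between 63.9 and 70.3 in KI and between 37.3 and 59.9 in WT, while Pou5f1 is at 0 in all but KI 3.

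Pou5f1 was all but absent. A single read was assigned to it in KI 3 (0.0386 RPKM), and 0 in the other 5 libraries, out of 72354625 reads in all. Counting error alone allows 0.116 and 0.137 RPKM in KI 1 and KI 2 and 0.0984 to 0.105 RPKM in the WT libraries, the level of 3 reads. Nanog had 4, 2 and 0 reads in the KI libraries and 8, 3 and 1 reads in the WT libraries, or at most 0.268 RPKM. These levels go against the labelled day 7.5, at which the epiblast of a mouse embryo is known to express both factors. Of the 31-base words of Pou5f1 14.2%, and of those of Nanog 10.7%, also occur in transcripts of other genes. Exons of Pou5f1 overlap the gene model Gm19553. How reads from such stretches were counted is not given, so some may be missing from both genes. In bulk samples, fewer cells of a type and less RNA per cell cannot be told apart.

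The genes of the naive and post-implantation epiblast were also sparse. Fgf5 was at 0.278, 0.0410 and 0.347 RPKM in the KI libraries and at 0.300, 0.0946 and 0.206 in the WT libraries, from 1 to 10 reads per library. Zfp42 was at 0.139, 0 and 0.507 RPKM in KI and at 0.399, 0.336 and 0.0784 in WT. Dppa4, a chromatin-associated protein of pluripotent cells, was at 0.105, 0 and 0.418 in KI and at 0.0903, 0 and 0.399 in WT. The KI and WT values of all 3 genes overlapped, and each had its lowest KI value in KI 2. For Dppa4 40.1% and for Zfp42 13.4% of the 31-base words also occur in transcripts of other genes. Their few reads therefore cannot be assigned with certainty.

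Utf1 and L1td1 were low as well, but each stood higher in 1 WT library. Utf1, a chromatin-bound factor of epiblast and embryonic stem cells, had 5, 2 and 4 reads in the KI libraries and 18, 2 and 1 reads in the WT libraries. Its 1.10 RPKM in WT 1 compares with 0.0601 to 0.354 in the other 5 libraries. L1td1, an RNA-binding protein derived from a LINE-1 element, had 18, 3 and 29 reads in the KI libraries and 15, 12 and 59 reads in the WT libraries. The 59 reads of WT 3 (95% exact Poisson interval 44.9 to 76.1, counting error only) equal 1.37 RPKM, against 0.0968 to 0.793 RPKM elsewhere. The library highest in L1td1 was also the highest in the summed yolk sac markers (1256 RPKM), and the lowest, KI 2, was the lowest in them (9.96 RPKM). The part of that tissue in L1td1 was not tested.

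Tdgf1 (Cripto), a membrane-anchored co-receptor for Nodal that is also expressed in the early heart, was the only other gene of the 10 to pass the expression minimum of 1 RPKM in at least 3 libraries. It was at 3.05, 0.195 and 3.47 RPKM in the KI libraries and at 1.52, 1.84 and 1.72 RPKM in the WT libraries. KI 1 and KI 3 lay above every WT library, and KI 2 lay below all of them, with 5 reads (95% exact Poisson interval 1.62 to 11.7) against 53 to 105 elsewhere. The 2 genotypes averaged 2.24 ± 1.78 RPKM among KI and 1.69 ± 0.16 RPKM among WT libraries. On the log2(RPKM + 1) scale, where the pseudocount shrinks the changes of weakly expressed genes, the KI minus WT difference was 0.05 (SE 0.48, 95% interval -1.07 to 1.17; limma adjusted p = 0.999), and its sign turned with the scaling (-0.01 with median-ratio or trimmed-mean scaling). Without KI 2 it was 0.66 (unadjusted p = 0.0087, limma adjusted p = 0.982), and without both WT 3 and KI 2 it was 0.67 (adjusted p = 0.115). Heart genes were low in the same library, with the atrial myosin light chain Myl7 reaching 58.7 RPKM in KI 2 against 155.7 to 201 elsewhere. The part of the heart and yolk sac markers in the level of Tdgf1 was not tested. Of its 31-base words, 12.6% recur in other transcripts, with the pseudogene Tdgf1-ps1 first among them.

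Lin28a was the most abundant of the 10 genes in every library. Its level was 66.8, 63.9 and 70.3 RPKM in the KI libraries and 51.4, 59.9 and 37.3 RPKM in the WT libraries, from 2020 to 3238 reads per library. All 3 KI values lay above all 3 WT values. Only 1092 of the 10104 tested genes had a higher mean RPKM. The means were 67.0 ± 3.23 RPKM among KI and 49.5 ± 11.4 RPKM among WT libraries, a ratio of 1.35. The log2 difference of 0.45 did not pass the threshold (SE 0.19, 95% interval -0.0013 to 0.91; unadjusted p = 0.051, limma adjusted p = 0.999), and its rank by p-value was 123 among all tested genes. The exact two-sided permutation test gave p = 0.1, the smallest value that 3 against 3 allows. Groups that did not overlap with KI higher were seen for 384 of 10104 genes (3.8%), and with KI lower for 277 (2.74%). Among the 3 tested members 1 gene was separated with KI higher and 0 with KI lower, a share read against that background.

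The size of the Lin28a difference rested in part on WT 3, where the gene was lowest. It was 0.27 without WT 3, 0.30 without both WT 3 and KI 2, and 0.22 with libraries weighted by their spread, positive in each and not past the threshold (lowest adjusted p = 0.257 over 15 alternatives). Exons of Lin28a overlap the gene model Gm13061, and without strand information their reads cannot be told apart.

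Lin28b was at 17.8, 16.2 and 15.3 RPKM in the KI libraries and at 19.0, 20.7 and 11.99 RPKM in the WT libraries, from 1430 to 2377 reads per library. The KI values lay within the WT range, below WT 1 and WT 2 and above WT 3. The means were 16.4 ± 1.24 RPKM among KI and 17.2 ± 4.61 RPKM among WT libraries, and the log2 difference was -0.03 (SE 0.23, 95% interval -0.57 to 0.50; limma adjusted p = 0.999). Without WT 3 the difference was -0.26 (limma adjusted p = 0.957), without both WT 3 and KI 2 it was -0.25 (adjusted p = 0.403), and it was above 0 without KI 3, WT 1 or WT 2.

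Neither Lin28 gene nor Tdgf1 was called, and neither was any other gene. By limma with Benjamini-Hochberg adjustment 0 of the 3 tested members and 0 of 10104 tested genes (0.0%) had an adjusted p under 0.05. Before adjustment 121 genes (1.2%) lay under 0.05, none of them a member, and limma-voom on recovered reads also called 0, with 91 at an unadjusted p under 0.05. Without WT 3 and KI 2 together limma called 41 genes, and with libraries weighted by their spread it called 93, with 0 members in either. Myf5, described below, was among the 93. The weights were 7.75, 0.395 and 1.25 in the KI libraries and 0.695, 3.41 and 0.110 in the WT libraries. The weighted fit thus rested mostly on KI 1 and WT 2.

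Relative to each other, the pair separated the genotypes. The ratio of Lin28a to Lin28b RPKM within a library, which does not depend on library scaling, was 3.76, 3.95 and 4.59 in the KI libraries and 2.71, 2.90 and 3.11 in the WT libraries. It averaged 4.10 ± 0.44 among KI and 2.90 ± 0.20 among WT libraries, and the log2 difference was 0.50 (exact two-sided permutation p = 0.1, the smallest possible). WT 3, the library lowest in both genes, had the highest WT ratio, still below every KI library. This ratio was chosen after its values were seen. Of the 10103 tested genes apart from Lin28b, 1135 (11.2%), Lin28a among them, separated with KI higher when set against Lin28b. With KI lower 57 separated. Both counts were made on the log2(RPKM + 1) scale, and the pattern is not particular to Lin28a. Leaving out each library in turn kept the log2 difference between 0.41 and 0.56.

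**Figure D2:**
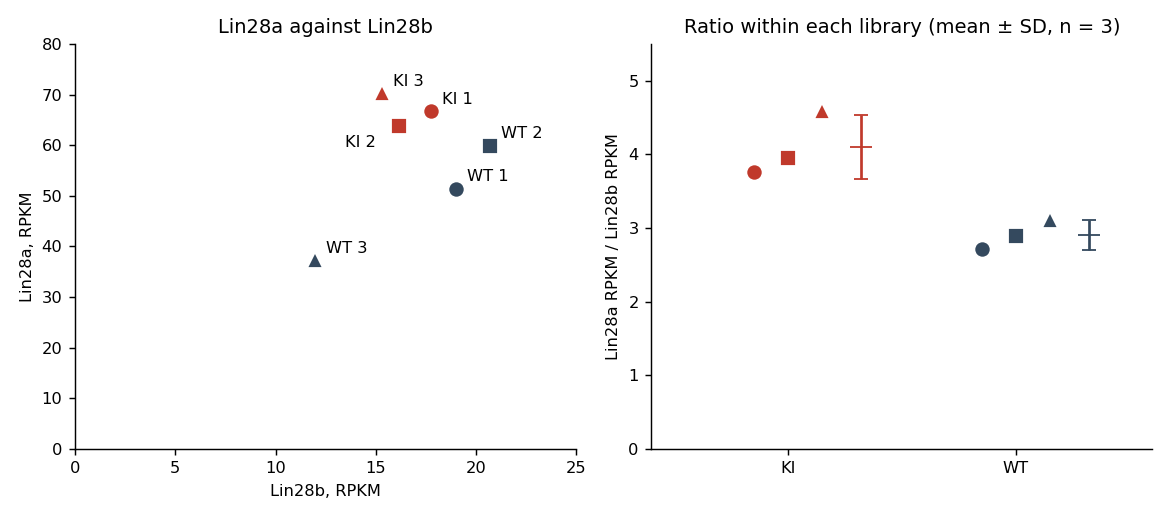
Left, Lin28a RPKM against Lin28b RPKM, with a point for each of the 6 libraries (KI red, WT dark). Right, the ratio of the 2 values within each library, with group mean and SD beside the points; the KI ratios lie between 3.76 and 4.59 and the WT ratios between 2.71 and 3.11.

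The tested genes whose pattern over the 6 libraries was most like a member's are given as a description, with no test, since so few libraries make high correlations common. For Lin28a these were Ercc4 (Pearson's r = 0.989, log2 scale), a DNA repair endonuclease subunit, the kinase gene Pim2 (r = 0.988) and Zfp710 (r = 0.988). Zfp710 was at 6.88, 6.77 and 7.04 RPKM in the KI libraries and at 5.71, 6.23 and 3.75 in the WT libraries. For Lin28b they were Txnrd2, the mitochondrial thioredoxin reductase (r = 0.997), Ppib (r = 0.996) and the connexin gene Gja5 (r = 0.995). For Tdgf1 they were Ripply3 (r = 0.995), Vangl1 (r = 0.992) and Soat1 (r = 0.991), each lowest in KI 2.

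The wider lists of stage markers placed the 10 genes in context. Of 16 genes of naive pluripotency 9 never reached 1 RPKM in any library, among them Esrrb (at most 0.101), Nr0b1 (at most 0.113) and Prdm14 (at most 0.0615), and Tcl1 was listed at 0 throughout. The list's highest mean RPKM values belonged to Tbx3 (1.90 ± 0.63 in KI, 2.04 ± 1.09 in WT), Tdh (1.64 ± 1.38 in KI, 2.11 ± 1.20 in WT), Klf4 (1.69 ± 0.79 in KI, 1.04 ± 0.16 in WT), Klf5 (1.43 ± 0.63 in KI, 0.961 ± 0.398 in WT) and Tfcp2l1 (1.04 ± 0.83 in KI, 1.07 ± 0.05 in WT). Several of these are also expressed outside pluripotent cells. Of its 5 tested genes 0 were called.

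Among 16 genes of gastrulation and the primitive streak 7 never reached 1 RPKM. Eomes did not exceed 0.0835, Gsc 0.414, Nodal 0.188 and Mesp1 0.341 RPKM in any library. Other genes of the streak list were detected, with 7 past the expression minimum. Mixl1 was at 7.84, 2.72 and 8.66 RPKM in the KI libraries and at 4.58, 3.68 and 17.0 in the WT libraries. Cer1 was at 2.20 ± 0.84 in KI against 2.10 ± 0.35 in WT, and Lhx1 at 1.93 ± 1.21 in KI against 1.95 ± 1.25 in WT. Foxa2 and Wnt3 passed the minimum at lower levels. Brachyury (T), which persists in the tail bud, was at 9.55 ± 2.61 RPKM among KI and 6.80 ± 0.50 among WT libraries, and Fgf8 at 8.87 ± 0.87 in KI against 6.07 ± 3.61 in WT. Genes that come on as organs begin to form were detected, some at high and some at low levels. Cardiac actin Actc1 was at 131.6 ± 81.2 RPKM among KI and 170.7 ± 50.2 among WT libraries, the somite gene Meox1 at 22.9 ± 6.95 in KI against 26.7 ± 10.9 in WT, the posterior Hox genes Hoxb9 at 4.65 ± 0.60 in KI against 3.77 ± 1.63 in WT and Hoxc9 at 5.52 ± 0.69 in KI against 5.65 ± 1.51 in WT, and the eye and spinal cord regulator Pax6 at 1.74 ± 0.28 in KI against 1.80 ± 0.28 in WT. The myogenic factor Myf5 had the lowest p-value of this list, at 2.80, 2.70 and 5.12 RPKM in the KI libraries and 7.86, 8.37 and 14.3 in the WT libraries (log2 difference -1.30, SE 0.30; limma unadjusted p = 0.00318, adjusted p = 0.999), with no overlap. Groups apart with KI lower made up 2.74% of all tested genes. With libraries weighted by their spread Myf5 passed the threshold (log2 difference -1.22, limma adjusted p = 0.0239), and it did not in the other 14 alternatives. That weighted fit rested mostly on KI 1 and WT 2. Of the 13 tested genes of the list 2 had a positive difference and 0 were called without weights. The median of -0.37 became 0.0017 without KI 2, -0.56 without WT 3 and -0.17 without both. Only Neurog2 and Hand2 of these 18 genes stayed under 1 RPKM everywhere. The heart and somite regulators Nkx2-5, Hand2 and Tcf15 averaged 0.621, 0.533 and 0.647 RPKM in KI and 1.19, 0.836 and 0.984 RPKM in WT. In both genotypes the label of day 7.5 stood beside near-absent Pou5f1 and Nanog, abundant Myl7 and Actc1, and lower but detected posterior Hox transcripts. The streak gene Mixl1 was detected in both as well.

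**Figure D3:**
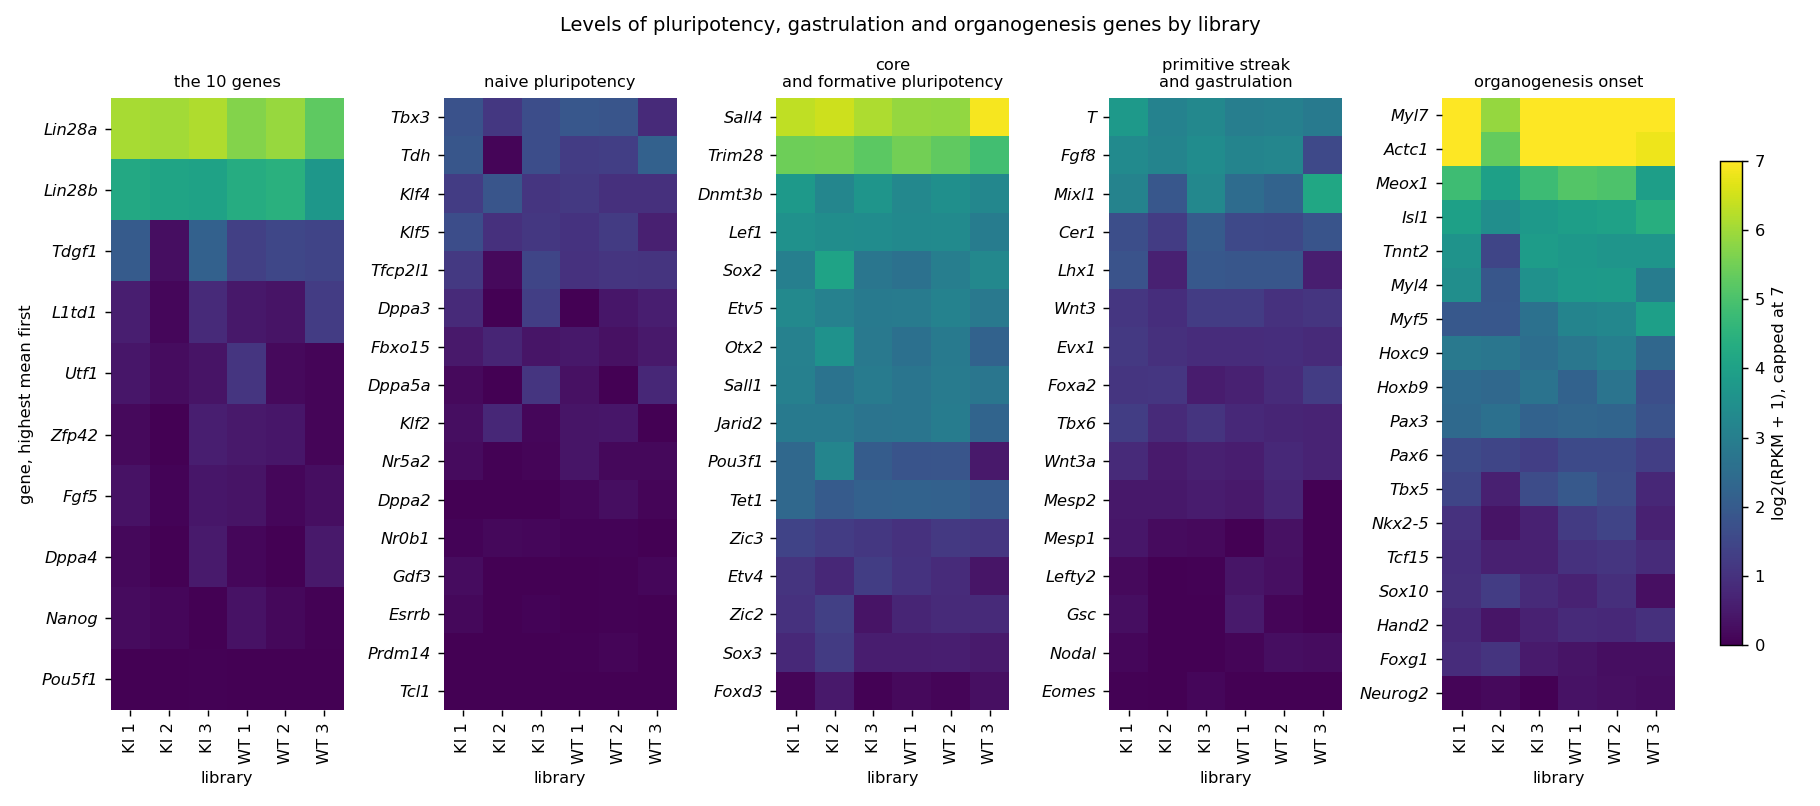
Heat maps of log2(RPKM + 1), capped at 7, for the 10 genes and 4 marker lists (rows, ordered by mean within each list) in the 6 libraries (columns, KI left of WT). The naive list is dark in all libraries, the streak list is dark from Mesp2 down, and the organogenesis list is bright at Myl7 and Actc1, least so in KI 2 (58.7 and 39.4 RPKM).

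Of 16 genes shared by pluripotent cells and later progenitors, 13 passed the expression minimum, while Foxd3 stayed at or below 0.397 RPKM. Sall4, a zinc-finger factor of stem and progenitor cells, was at 78.9 ± 9.06 RPKM among KI and 78.4 ± 35.7 among WT libraries, and the de novo methyltransferase gene Dnmt3b at 10.8 ± 2.25 in KI against 9.08 ± 0.98 in WT. Sox2, which is also a neural progenitor factor, was at 7.06, 15.6 and 5.69 RPKM in the KI libraries and at 5.07, 7.02 and 8.68 in the WT libraries. Of the 13 tested genes 0 were called, with all 13 differences above 0 and a median of 0.18, against 5940 of 10104 and a median of 0.05 over all tested genes. With median-ratio scaling 12 of the 13 were positive (4773 of 10104 over all tested genes), and the median was 0.12. Without WT 3 it was 10 of 13 (median 0.13), against 3725 of 10104 (median -0.05) over all tested genes. Without both WT 3 and KI 2 it was 11 of 13 (median 0.16), against 4473 of 10104 (median -0.02) over all tested genes. Without WT 2 the median was 0.30, against 0.10 over all tested genes. The POU factor gene Pou3f1 (Oct6), also active in neural ectoderm, did not overlap between genotypes, at 4.20, 8.04 and 3.13 RPKM in the KI libraries and 2.55, 2.60 and 0.383 in the WT libraries (log2 difference 1.15, SE 0.45; limma unadjusted p = 0.0355, adjusted p = 0.999). That difference rested in part on the libraries standing apart: it was 0.69 without WT 3, 0.37 without both WT 3 and KI 2 and 0.56 with libraries weighted by their spread. Lef1, the nuclear effector of Wnt signalling, did not overlap either (9.61 to 10.7 in KI, 6.70 to 9.10 in WT), and groups apart in either direction made up 6.54% of all tested genes.

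The summed markers of neural progenitors were highest in KI 2, as was Sox2. Over the 10 neural markers the summed RPKM was 33.1, 60.9 and 21.2 in the KI libraries and 31.3, 29.9 and 20.5 in the WT libraries, and 2 of the 10, Olig2 and Pax2, never reached 1 RPKM. Their part in the levels of Sox2, Otx2 and Pou3f1 was not tested. Markers of primordial germ cells, which are known to keep Pou5f1 expression after gastrulation, were uneven. Of 10 markers 5 never reached 1 RPKM, with Dazl at most 0.124, Nanos3 at most 0.554 and Dnd1 at most 0.218. Dppa3 was at 0.779, 0 and 1.46 RPKM in the KI libraries and at 0, 0.354 and 0.496 in the WT libraries. The expression minimum was passed by 4 markers, with 0 called. The summed level of that list, 39.4, 26.0 and 47.8 RPKM in the KI libraries and 32.6, 33.3 and 44.3 in the WT libraries, came mostly from Ifitm3 (19.3 to 37.3), which many other cells express. Trophoblast markers Elf5 (at most 0.0255), Tpbpa and Prl3d1 (both listed at 0) and the decidual granzymes Gzmd, Gzme, Gzmf and Gzmg (listed at 0) were at or near 0. Other genes of those lists were not: 4 of 11 trophoblast genes were tested, with a summed level of 26.4, 9.71 and 29.2 RPKM in the KI libraries and 28.0, 24.2 and 26.9 in the WT libraries. Of 10 decidua genes 4 were tested, all with a negative difference (median -0.52, 0 called), and the list summed to 70.6, 27.2 and 72.2 RPKM in the KI libraries and 74.8, 77.3 and 103.6 in the WT libraries, mostly from Cryab, which heart muscle also expresses. The part of these tissues in the results was not tested. The primitive erythroid list summed to between 1978 and 2895 RPKM in every library.

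The machinery through which Lin28 acts on let-7 was present in both genotypes. Lin28a recruits the terminal uridylyl transferases Tut4 and Tut7 to the let-7 precursor, and Dis3l2 then degrades it. Tut4 was at 7.63 ± 1.15 RPKM among KI and 6.69 ± 0.69 among WT libraries, Tut7 at 2.39 ± 0.29 in KI against 2.33 ± 0.89 in WT, and Dis3l2 at 3.06 ± 0.13 in KI against 2.36 ± 0.63 in WT. The 3 KI values of Dis3l2, 2.98 to 3.21, lay above the WT values of 1.64 to 2.78, as in 3.8% of all tested genes. Its log2 difference was 0.29, and 0.13 without WT 3. The core processing enzymes Drosha (15.6 ± 1.51 in KI, 17.7 ± 1.42 in WT) and Dicer1 (3.08 ± 0.38 in KI, 2.80 ± 0.42 in WT) overlapped between genotypes. Of 12 listed genes 11 were tested and 0 were called, 9 with a positive and 2 with a negative difference (median 0.16). Without WT 3 it was 6 positive and a median of 0.0090, against 3725 of 10104 positive and a median of -0.05 over all tested genes.

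Trim71, a stem cell RNA-binding ubiquitin ligase and a classical let-7 target, gave the smallest p-value of the let-7 lists. Its 3′ UTR holds 4 seed matches, shown here because this gene differed in the same direction as Lin28a.
Trim71 match 1: tacaacattgcctaagtcCTACCTCagctt
Trim71 match 2: tgaagtgataatttctatCTACCTCaactc
Trim71 match 3: ttgtttagtatggattttCTACCTCaattt
Trim71 match 4: attttggcaaaaagttgtCTACCTCacgtc
Its level was 15.97, 16.4 and 15.5 RPKM in the KI libraries and 12.3, 12.3 and 10.1 RPKM in the WT libraries. The groups did not overlap, as in 3.8% of all tested genes with KI higher, and the spread within each genotype was small. The log2 difference was 0.43 (SE 0.16, 95% interval 0.052 to 0.82) and did not pass the threshold (unadjusted p = 0.031, rank 54 of 10104; limma adjusted p = 0.999). It lay between 0.33 and 0.48 over 15 alternatives, with 0.35 without WT 3, and its lowest adjusted p was 0.0983, with libraries weighted by their spread.

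Known let-7 targets were abundant, 11 of 18 at 10 RPKM or more in every library. Of the 18, all tested and 0 called, 14 had a positive and 4 a negative KI minus WT difference, with a median of 0.23. Nras was the most abundant of them (237 ± 11.2 RPKM in KI, 208 ± 10.2 in WT), followed by the chromatin protein gene Hmga1 (180.1 ± 16.8 in KI, 127 ± 52.3 in WT), and in both the KI values lay above the WT values. Myc (74.2 ± 7.35 in KI, 64.7 ± 9.56 in WT), Ccnd2 (67.1 ± 4.01 in KI, 56.1 ± 22.4 in WT) and Hmga2 (53.3 ± 20.1 in KI, 42.5 ± 11.6 in WT) overlapped between genotypes. Dusp9, a MAP kinase phosphatase gene, went the other way without overlap, with 2.30 to 3.03 RPKM among KI and 3.14 to 5.16 among WT libraries. Thus 2 of the 18 were apart with KI higher and 1 with KI lower, against 3.8% and 2.74% of all tested genes. The log2 difference of Hmga1 was 0.60, and 0.19 without WT 3. That of Nras was 0.19, and 0.11 with median-ratio scaling. The positive sign of the median came with WT 3: without that library 8 of 18 differences were positive and the median was -0.02. Over all tested genes 5940 of 10104 were positive with every library in (median 0.05), and 3725 without WT 3 (median -0.05). Without both WT 3 and KI 2 it was 7 of 18 (median -0.02), against 4473 of 10104 (median -0.02) over all tested genes.

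**Figure D4:**
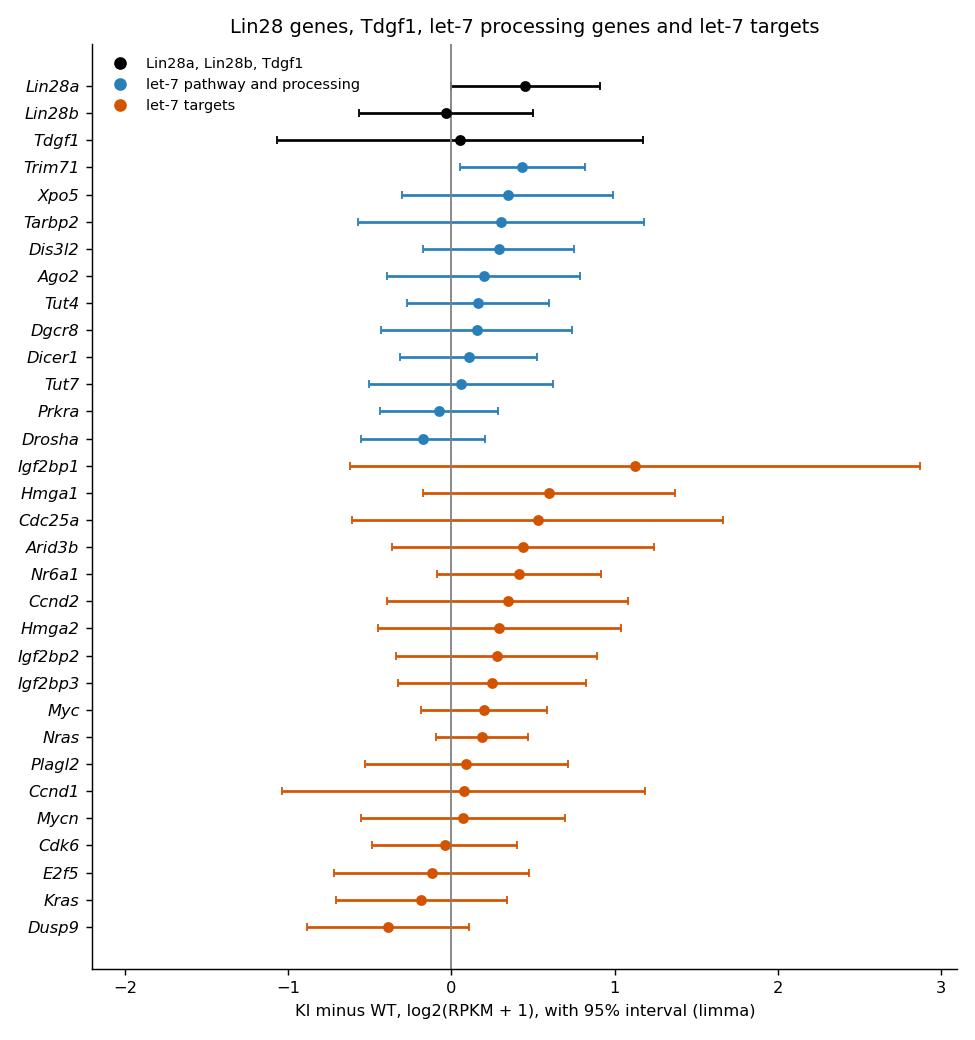
KI minus WT differences on the log2(RPKM + 1) scale (points) with limma 95% intervals (bars) for Lin28a, Lin28b and Tdgf1 (black), let-7 processing genes (blue) and let-7 targets (orange), sorted within each list. The interval of Trim71 (0.052 to 0.82) lies above 0, that of Lin28a starts at -0.0013, and those of the other genes shown include 0.

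The let-7 targets also set WT 3 apart from its own genotype. Igf2bp1, an RNA-binding protein gene with several let-7 sites, was at 99.9, 111 and 85.2 RPKM in the KI libraries and at 83.8, 94.3 and 10.6 RPKM in the WT libraries. Hmga1 was at 66.8 RPKM in WT 3 and 155.7 to 195.6 elsewhere, and the cell cycle phosphatase gene Cdc25a at 3.79 against 14.3 to 16.6. WT 3 was the lowest library for 14 of the 18 targets (77.8%) and for 9 of the 11 processing genes (81.8%), where it was the lowest for 51.8% of all tested genes.

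Grouping all tested genes by the number of let-7 seed matches also set WT 3 apart. For each gene the deviation of each library from the mean of the 6 was taken on the log2(RPKM + 1) scale. In WT 3 the median deviation was -0.21 for 2573 genes with no match and a 3′ UTR of at least 2000 bases, -0.26 for 587 genes with 1 match and a UTR of that length, -0.39 for 145 genes with 2 or more matches and -0.56 for 21 genes with 3 or more. For 566 genes with no match and a 3′ UTR of at least 4000 bases it was -0.19. In the other 5 libraries the medians of these groups lay between -0.0036 and 0.14. The 21 genes are among the 145, and the 145 include Lin28a, Lin28b, Igf2bp1 and Trim71. These groups overlap in part with the list of targets, and genes are not independent replicates. A single library carries the pattern, so it is a description of WT 3 and says nothing of genotype. WT 3 was also the library with the lowest Lin28a and Lin28b and the highest summed yolk sac markers, and the part of tissue composition in the pattern was not tested.

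**Figure D5:**
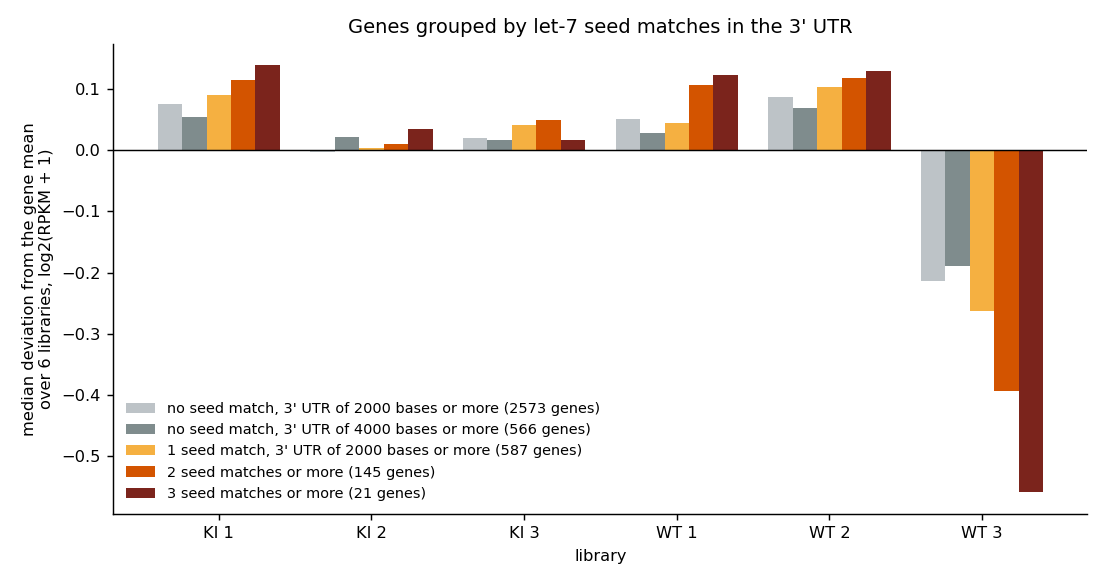
Median deviation from the gene mean over 6 libraries, on the log2(RPKM + 1) scale (vertical axis), for genes grouped by let-7 seed matches in the 3′ UTR (bar colours) in each library (horizontal axis, KI left of WT). In WT 3 the bars deepen to -0.39 with 2 or more matches and -0.56 with 3 or more, while in the other libraries all bars stay between -0.0036 and 0.14.

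Between genotypes the same grouping gave small differences. The median KI minus WT difference was 0.05 for genes with no match and a 3′ UTR of at least 2000 bases (1586 of 2573 positive) and 0.14 for genes with 2 or more matches (101 of 145 positive), with 0 calls in either. Without WT 3 these medians were -0.05 for genes with no match and -0.05 for genes with 2 or more matches.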

How the data were processed

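Polyadenylated RNA of 6 embryo libraries (3 KI, 3 WT) was captured on oligo(dT) beads and sequenced after SMARTER library preparation, per the labels' protocols. Per the submitters' processing notes GRCm39 was the build. Aligner, counter, annotation and strand setting are not given in the sources used here. Although labelled as raw counts, the values deposited by the authors are RPKM: multiplied by merged exon length (GENCODE M21, GRCm38, lengths and names only), 97.9% to 98.0% of nonzero values under 2000 reads were whole within 0.05, which gave depth and reads. Among rows of the 20 repeated symbols, that of highest mean entered.

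The 10104 genes that reached 1 RPKM in 3 or more libraries were tested with limma 3.58.1 (R 4.3.3) on log2(RPKM + 1), KI against WT, with trend, robust prior and Benjamini-Hochberg adjustment, threshold 0.05. This fit was tested on simulated data. Members and lists were chosen with earlier results of these data known. All members are named; from each list genes past the threshold and then those of highest mean RPKM were eligible, and other genes named were chosen after their values were seen. Intervals and the floor of 3 reads cover counting error only. The alternatives were scaling, pseudocount 0.1, no filter, no robust prior, library weights, limma-voom on recovered reads, a replicate block and libraries left out.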

Additional observations from a re-analysis of the deposited data

How the results depend on the processing

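Lin28a kept its positive difference and missed the threshold under all 15 alternatives (0.22 to 0.60; 0.27 to 0.60 leaving out each library), as did Trim71 (0.33 to 0.48). The count of 0 called genes became 93 with library weights and 41 without WT 3 and KI 2 together, with 0 members among them. Myf5 (limma adjusted p = 0.0239) was among the 93, and the weights rested mostly on KI 1 and WT 2. The count stayed at 0 in the other 13 alternatives, including each library left out. Lin28b ran from -0.26 to 0.11 leaving out each library, positive without KI 3 (0.01), WT 1 (0.05) or WT 2 (0.11). Tdgf1 had no stable direction: it was -0.26 with pseudocount 0.1, -0.011 with median-ratio and -0.011 with trimmed-mean scaling and -0.29 with limma-voom on recovered reads, and it ran from -0.29 to 0.66 leaving out each library (-0.22 without KI 1, -0.29 without KI 3); the cause was not tested. The median of the let-7 targets ran from -0.019 (without WT 3) to 0.40 leaving out each library. It was -0.025 without WT 3 and KI 2 together. Over all tested genes the median was -0.055 without WT 3 and -0.022 without both. The median of the organogenesis list ran from -0.56 to 0.0017 (without KI 2). Same-numbered KI and WT libraries deviated together at r = 0.12, -0.05 and 0.0054, which gave no sign of pairing by number. With 3 libraries per genotype, and WT 3 and KI 2 standing apart under different numbers, this check cannot exclude pairing. With the replicate block 0 genes were called, and the differences were 0.45 for Lin28a, -0.03 for Lin28b and 0.05 for Tdgf1. Of the 7 low members all but L1td1 had under 20 reads in every library, so counting error is wide for those 6. L1td1 had 136 reads in all, and its libraries differed by more than counting error within each genotype.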
